A study of Mus musculus with 4 samples.

Results

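The genes described here encode the Ras GTPase Nras, 5 exchange factors that load Ras with GTP (Rasgrp1, Rasgrp2, Rasgrp3, Sos1 and Sos2) and 3 GTPase-activating proteins, or GAPs, that return it to the GDP-bound state (Rasa1, Rasa2 and Rasal3). They were chosen by name, and they and all gene lists below were chosen with earlier results of these data known. Shares over all tested genes therefore stand beside their counts as a description and not as a test. The genes make up 9 of the 20599 gene symbols in the RNA-Seq files, and all 9 had enough counts to be tested. The comparison addressed is how wild-type B1a cells from the peritoneal cavity differ from splenic follicular B cells, which the study calls B2 cells. Each cell type was represented by 2 libraries. By the labels, all 4 libraries came from wild-type C57BL/6 mice of 4 weeks of age, whereas the methods give an older age for the B2 mice and describe the donors as littermate controls of mice in which Cre deletes a floxed Dnmt3a gene in B cells. Another passage of the methods names C57BL/6J mice as the controls, so the alleles of these mice could not be settled from the sources used here. The cells were sorted by flow cytometry, B1a cells from peritoneal washes by a gate that included CD23- IgM+ CD5+ and follicular cells from spleens by a gate that included IgD-high IgM-low CD21+. The effects of cell type, of the organ sampled, of the sort gate and of the age given in the methods therefore coincide and cannot be told apart. Libraries from Dnmt3a-deficient mice were not analysed here.

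Ras is a molecular switch at the inner face of the plasma membrane. Signals from the B cell receptor turn it on through 2 routes. One is the RasGRP proteins, some of which bind diacylglycerol made by phospholipase C gamma. The other is the Sos proteins, which are brought to receptors by the adaptor Grb2. GTP-loaded Ras starts the Raf, MEK and ERK kinase cascade, and GAPs end the signal by speeding up the hydrolysis of GTP.

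Library totals lay between 11032732 and 18588623 expected counts, and 3 counts, taken as a floor that covers counting error only, correspond to between 0.157 and 0.270 CPM (the count divided by the TMM-scaled library total and multiplied by 1000000). The B1a replicates resembled each other less than the B2 replicates did, with a Pearson correlation of log2 CPM across the 12078 tested genes of 0.836 against 0.966, where genes are not independent replicates. The median gene differed 1.46-fold between the B1a replicates and 1.16-fold between the B2 replicates. The sorted identities were visible in the RNA. The summed level of 5 B cell markers lay between 4352 and 5846 CPM in all 4 libraries, that of 5 B1a markers was 1182 and 893 CPM in B1a cells against 75.7 and 75.3 CPM in B2 cells, and that of Fcer2a and Cr2, which encode CD23 and CD21, was 162 and 153 CPM against 1902 and 1942 CPM.

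Of the 9 genes, Rasgrp1 and Sos1 were called higher in B1a cells (2 genes), Rasgrp3 and Rasal3 were called higher in B2 cells (2 genes), and 5 were not called, at an adjusted p under 0.05 in edgeR's quasi-likelihood test. Among all 12078 tested genes, 5.74% were called, 4.24% as higher in B1a cells and 1.50% as higher in B2 cells. The replicates of the groups did not overlap in CPM for 7 of the 9 genes, against 54.3% of all tested genes. The median log2 fold change (B1a over B2) was -0.23 over the 9 genes and -0.03 over all tested genes.

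The sequences upstream of the 4 called genes are shown because the study concerns the methylation of CpG dinucleotides and because these 4 genes moved in opposite directions. They were taken from RefSeq (GRCm38.p6), run 5' to 3' toward a RefSeq transcription start, and stop before any GENCODE exon and the RefSeq span of the gene, so that 124 bases next to the start used for Rasgrp1, 35 of Rasgrp3, 2 of Rasal3 and 0 of Sos1 are left out. Capitals mark matches to the motifs searched.
Rasgrp1, chr2:117343002-117343127 (minus strand): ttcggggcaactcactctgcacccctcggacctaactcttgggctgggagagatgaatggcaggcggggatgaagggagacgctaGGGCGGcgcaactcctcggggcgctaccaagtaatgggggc
Sos1, chr17:80480454-80480703 (minus strand): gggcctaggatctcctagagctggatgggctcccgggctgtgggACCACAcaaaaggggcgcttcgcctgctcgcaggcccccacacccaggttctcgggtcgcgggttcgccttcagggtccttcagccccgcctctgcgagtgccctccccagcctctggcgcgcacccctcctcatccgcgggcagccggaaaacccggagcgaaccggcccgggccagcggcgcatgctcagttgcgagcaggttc
Rasgrp3, chr17:75435655-75435869 (plus strand): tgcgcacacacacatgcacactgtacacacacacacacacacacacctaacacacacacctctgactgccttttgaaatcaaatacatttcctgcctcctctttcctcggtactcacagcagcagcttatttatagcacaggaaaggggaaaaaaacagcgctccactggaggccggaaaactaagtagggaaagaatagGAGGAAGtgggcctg
Rasal3, chr17:32403584-32403831 (minus strand): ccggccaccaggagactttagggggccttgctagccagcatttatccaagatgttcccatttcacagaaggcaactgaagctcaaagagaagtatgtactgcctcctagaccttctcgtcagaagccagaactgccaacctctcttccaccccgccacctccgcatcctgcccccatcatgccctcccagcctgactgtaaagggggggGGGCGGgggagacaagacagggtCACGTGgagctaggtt

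CpG dinucleotides were counted in the whole 250 bases upstream of each start, where Rasgrp1 had 21 CpG dinucleotides and 62.4% G and C, and Sos1 had 22 and 70.4%. Rasgrp3 had 4 and 47.6% at this start and 8 and 52.8% at a second annotated start, and Rasal3 had 6 and 57.6%. Of the genes that were not called, Sos2 had 47 CpG dinucleotides, Rasgrp2 31 and 21 at 2 starts, Rasa1 and Rasa2 24 each and Nras 14, so a high count was not particular to the genes called higher in B1a cells. The medians over 32851 such windows were 6 CpG dinucleotides and 52.4%. Methylation was not analysed here.

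The motifs searched on both strands were CACGTG (class B E-box), CAGCTG (E-protein E-box), TGANTCA (AP-1), CCGGAAG (ETS), GAGGAAG (PU.1), CCCNNGGG (EBF), TGTGGT (Runx) and GGGCGG (GC box), and no 2 of the matches shown overlap. The Rasal3 window held CACGTG between 18 and 13 bases before the start, a motif found in 6.02% of all windows, and a GC box. The Rasgrp1 window held a GC box, found in 32.7% of all windows. The Rasgrp3 window held GAGGAAG between 50 and 44 bases before the start, found in 10.6%, and the Sos1 window held the Runx motif on its opposite strand, found in 14.0%. Among the genes that were not called, Nras also held CACGTG, between 15 and 10 bases before its start. These matches describe the letters of the windows and not sites of binding.

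Among the RasGRP genes, Rasgrp1 stood at the higher level in B1a cells and Rasgrp3 in B2 cells. Rasgrp1 (chromosome 2, 117279983 to 117342877, GRCm38.p6, minus strand) encodes a diacylglycerol-responsive exchange factor best known from T cells, where it links the antigen receptor to Ras. Its level was 634 and 615 CPM in the B1a replicates and 249 and 299 CPM in the B2 replicates. Both B1a libraries lay above both B2 libraries, and the B1a replicates were closer to each other than the B2 replicates. The fitted difference was 2.28-fold (log2 fold change 1.19, SE 0.13, 95% interval 0.86 to 1.52, edgeR adjusted p = 0.0079). In bulk RNA, fewer cells with a transcript and less of it per cell cannot be told apart, here and below. The summed level of 7 T cell markers was 51.9 and 27.4 CPM in B1a cells and 46.1 and 48.1 CPM in B2 cells, and none of the 7 was called. The markers did not move together. Cd4 (0 CPM in both B1a libraries, 3.21 and 3.24 CPM in B2 cells), Bcl11b and Cd3e were lower in both B1a libraries. Cd3d, Cd3g, Cd8a and Lat overlapped between the groups. The part of T cells in the values of Rasgrp1 was not tested.

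Rasgrp3 (chromosome 17, 75435870 to 75529054, plus strand), whose protein is activated downstream of the B cell receptor, showed the largest called difference of the 9 genes. Its level was 47.2 and 54.1 CPM in B1a cells and 346 and 378 CPM in B2 cells. The groups lay far apart compared with the spread within each, which was 1.15-fold in B1a cells and 1.09-fold in B2 cells. The difference was 7.15-fold in favor of B2 cells (log2 fold change -2.84, SE 0.15, 95% interval -3.22 to -2.46, edgeR adjusted p = 0.0013).

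Rasgrp2 (chromosome 19, 6398957 to 6415216, plus strand), whose protein is also a strong activator of the related GTPase Rap1, was not called. It was listed under 2 entries with the same transcript, between which reads were divided equally, so the entries were summed. In B1a replicate 1 each entry held 795 counts with a deposited posterior standard deviation of 402 counts, and the division within the pair does not affect the sum. The summed level was 143 and 193 CPM in B1a cells and 229.9 and 204 CPM in B2 cells. Both B2 libraries were above both B1a libraries, but the upper B1a and the lower B2 library were close. The log2 fold change was -0.37 (SE 0.19, 95% interval -0.83 to 0.09, edgeR adjusted p = 0.345).

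The Sos genes encode exchange factors that are recruited to activated receptors by Grb2. Sos1 (chromosome 17, 80393752 to 80480453, minus strand) measured 233 and 201 CPM in B1a cells and 96.0 and 104 CPM in B2 cells. Both B1a libraries were above both B2 libraries, with a difference of 2.16-fold (log2 fold change 1.11, SE 0.16, 95% interval 0.73 to 1.50, edgeR adjusted p = 0.0161). This call was lost when log2(TPM + 1) was tested with limma (log2 fold change 0.85, adjusted p = 0.115), a scale on which the median of all genes lay 0.25 lower. Sos2 (chromosome 12, 69583761 to 69681852, minus strand) measured 81.6 and 89.5 CPM in B1a cells and 58.4 and 65.0 CPM in B2 cells. These groups did not overlap either, but the log2 fold change of 0.47 (SE 0.20, 95% interval -0.02 to 0.96) did not pass the test (edgeR adjusted p = 0.261).

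The gene for Nras (chromosome 3, 103058285 to 103067914, plus strand), the Ras protein on which these regulators act, showed no detectable difference. It measured 119.6 and 94.5 CPM in B1a cells and 106 and 110.1 CPM in B2 cells. The B2 values lay between the B1a values. The log2 fold change was -0.01 (SE 0.19, 95% interval -0.48 to 0.45, edgeR adjusted p = 0.980). The interval gives the differences compatible with these libraries and is not a limit of detection, since larger ones could also go uncalled.

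Of the GAPs, Rasal3 was called higher in B2 cells, and neither Rasa1 nor Rasa2 was called. Rasal3 (chromosome 17, 32390659 to 32403582, minus strand) encodes a GAP of blood cells. Its level was 189 and 159 CPM in B1a cells and 309 and 328 CPM in B2 cells. Both B2 libraries were above both B1a libraries, by 1.83-fold in the fit (log2 fold change -0.87, SE 0.14, 95% interval -1.23 to -0.52, edgeR adjusted p = 0.0264). The call was lost without B2 replicate 2 (log2 fold change -0.83, adjusted p = 0.094), and it does not pass an added minimum of 1 on the log2 scale, which 4.36% of all tested genes passed. An annotated long noncoding RNA crosses the start of Rasal3, and whether the counting used strand is not given in the sources used here.

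Rasa2 (chromosome 9, 96539300 to 96631612, minus strand), a GAP with a phospholipid-binding domain, was the most variable of the 9 genes. It measured 9.68 and 55.9 CPM in B1a cells and 113 and 131 CPM in B2 cells. Both B2 libraries were higher than both B1a libraries, but the B1a replicates differed 5.78-fold. Of all tested genes, 12.7% differed as much as Rasa2 or more between these replicates. The log2 fold change of -1.90 (SE 0.73, 95% interval -3.69 to -0.10) was not called (edgeR adjusted p = 0.218). Rasa2 was called, always as higher in B2 cells, in 5 of the 10 alternatives that kept all 4 libraries. DESeq2 was among these, and it called 1550 of all tested genes against 693 in the main fit. The log2 fold change was -1.13 without B1a replicate 1 and -3.66 without B1a replicate 2.

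Rasa1 (chromosome 13, 85214699 to 85289486, minus strand) encodes p120 RasGAP, which binds phosphorylated receptors through SH2 domains. It measured 166 and 70.3 CPM in B1a cells and 124 and 155 CPM in B2 cells. The B1a replicates, 2.37-fold apart, lay on either side of both B2 libraries. The log2 fold change was -0.23 (SE 0.40, 95% interval -1.21 to 0.74, edgeR adjusted p = 0.817). Its sign depended on the B1a library, with -0.99 without B1a replicate 1, which was then called, and 0.25 without B1a replicate 2. Replicates of the 2 GAPs went in opposite directions, Rasa1 being lower and Rasa2 higher in B1a replicate 2. The B1a replicates also differed in the summed level of 5 erythroid markers, at 78.8 and 504 CPM against 36.1 and 80.8 CPM in the B2 replicates, and its part in the values of Rasa1 and Rasa2 was not tested.

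**Figure D1:**
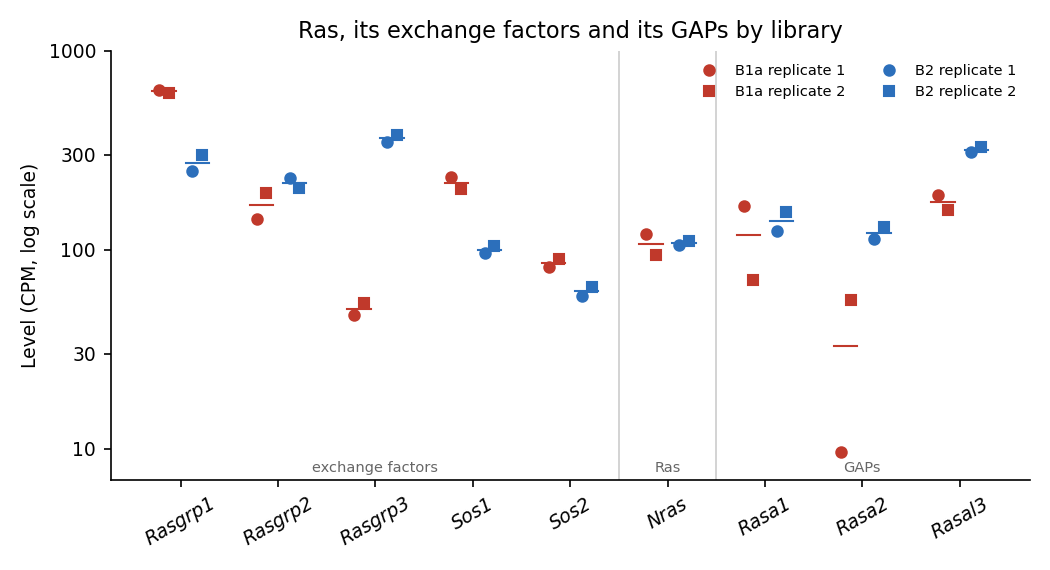
Level of each of the 9 genes in CPM (vertical axis, log scale) in the B1a (red) and B2 (blue) replicates, with circles for replicate 1, squares for replicate 2 and a line at the group mean. Rasgrp1 and Sos1 sit higher in both B1a libraries and Rasgrp3 and Rasal3 in both B2 libraries, while Rasa2 spans 9.68 to 55.9 CPM between the B1a replicates.

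**Figure D2:**
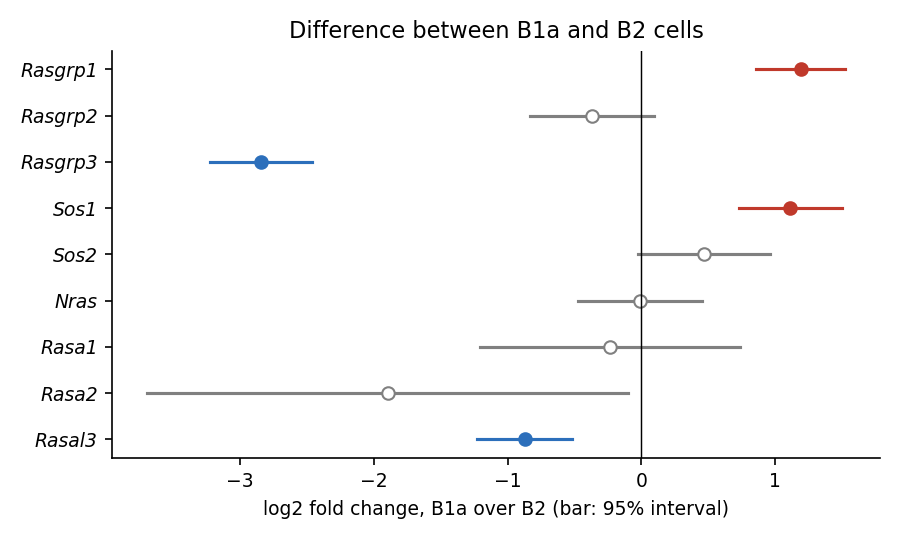
Log2 fold change of B1a over B2 for each gene (horizontal axis), with bars for the 95% interval from edgeR's fit. Filled points passed the test, red for higher in B1a and blue for higher in B2, and open gray points did not. Rasgrp3 lies farthest from 0 at -2.84, and Rasa2 has the widest interval.

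Levels of different genes were compared as TPM, the deposited measure scaled to the same total in every library, which takes the transcript's length into account. In B1a cells Rasgrp1 stood first, at 291 and 275 TPM, followed by Rasgrp2 at 155 and 205 TPM and Rasal3 at 121 and 99.3 TPM. Sos1, Nras, Rasa1 and Sos2 followed with means between 35.2 and 56.0 TPM, and each overlapped its neighbor in this order. Rasgrp3 at 23.7 and 26.5 TPM and Rasa2 at 3.97 and 22.4 TPM closed the list. In B2 cells Rasgrp2 stood first at 294 and 258 TPM, followed by Rasal3 at 233 and 243 TPM, Rasgrp3 at 205 and 220.1 TPM and Rasgrp1 at 134 and 159 TPM, with no overlap between neighbors. Rasa1 and Nras overlapped below them, Rasa2 came next at 54.7 and 62.1 TPM, and Sos1 and Sos2 overlapped at the end with 29.5 and 31.6 TPM and 28.6 and 31.4 TPM. Rasgrp1 was thus at rank 1 of the 9 genes in B1a cells and at rank 4 in B2 cells, and Rasgrp3 was at rank 8 and at rank 3.

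The makeup of the exchange factor RNA differed accordingly. Rasgrp1 made up 51.5% and 46.3% of the summed TPM of the 5 exchange factors in B1a cells and 19.4% and 22.7% in B2 cells. Rasgrp3 made up 4.20% and 4.46% in B1a cells and 29.6% and 31.5% in B2 cells. The ratio of Rasgrp1 to Rasgrp3 was 12.3 and 10.4 in B1a cells and 0.656 and 0.723 in B2 cells, so the more abundant of the pair was a different gene in each cell type. Sos1 and Sos2 together reached 94.8 and 87.6 TPM in B1a cells and 58.1 and 63.0 TPM in B2 cells, and the 3 RasGRP genes together 470.0 and 507 TPM against 633 and 637 TPM. The RasGRP genes therefore exceeded the Sos genes in all 4 libraries, by 4.96 and 5.79 times in B1a cells and by 10.9 and 10.1 times in B2 cells. With 2 libraries in each group, an exact permutation test of such sums or shares cannot go below a two-sided p of 0.33, and none was run.

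The balance of exchange factor to GAP RNA depended on which genes were counted. The 5 exchange factors held 2.80 and 3.88 times the TPM of the 3 GAPs in B1a cells and 1.95 and 1.80 times in B2 cells, without overlap. Over 8 exchange factors (with Rasgrp4, Rasgrf1 and Rasgrf2) and 10 GAPs (Rasa3, Nf1, Rasa4, Rasal1, Rasal2 and Dab2ip among those added), the ratio was 0.873 and 0.959 in B1a cells and 0.913 and 0.941 in B2 cells, and the groups overlapped. Rasa3, a GAP for Ras and Rap1 that binds membrane phosphoinositides, was the most abundant of the 10 in every library, with 58.0% and 67.4% of the TPM of the 10 GAPs in B1a cells and 43.3% and 39.1% in B2 cells. Rasal3 held 16.8% and 14.8% of it in B1a cells and 29.9% and 32.0% in B2 cells.

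**Figure D3:**
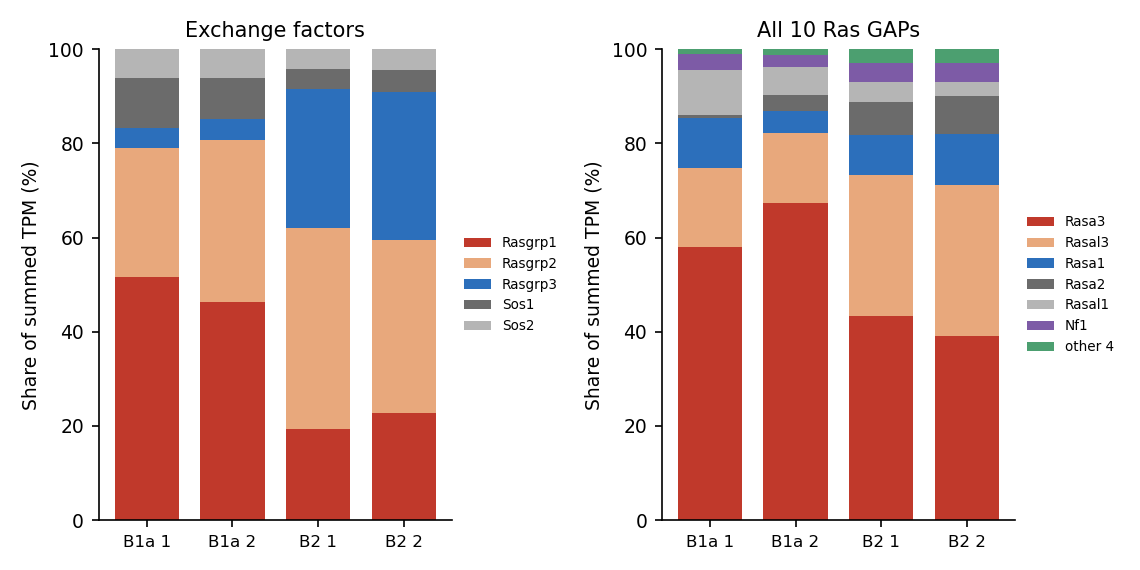
Share of the summed TPM (vertical axis, in %) of each exchange factor among the 5 described (left) and of GAPs among 10 (right, with the 4 least abundant drawn together), in the B1a and B2 replicates. In the left bars the Rasgrp3 segment grows from 4.20% and 4.46% in B1a cells to 29.6% and 31.5% in B2 cells, and in the right bars Rasa3 is the tallest segment in every library.

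The rest of the pathway was read from 8 lists of 70 other genes, of which 67 were tested. In all, 5 were called higher in B1a cells and 7 were called higher in B2 cells, while 55 were not called. The shares called among all tested genes were 4.24% and 1.50%. The median log2 fold change was -0.15 against -0.03 over all tested genes. Of the 4 tested Ras-family GTPases, only Rras2, which encodes a relative of R-Ras also known as TC21, was called. It measured 27.1 and 33.5 CPM in B1a cells and 75.9 and 90.3 CPM in B2 cells, without overlap (log2 fold change -1.46, SE 0.25, edgeR adjusted p = 0.0295). The call was lost without B2 replicate 1 (adjusted p = 0.073) and without B2 replicate 2 (adjusted p = 0.262). Of the 2 other exchange factors tested, Rasgrp4, known from mast cells and other myeloid cells, was called higher in B1a cells. It measured 79.5 and 57.7 CPM against 20.6 and 14.6 CPM (log2 fold change 1.97, SE 0.33, edgeR adjusted p = 0.0266). The summed level of 4 mast cell markers was 19.2 and 8.72 CPM in B1a cells and 1.47 and 0.941 CPM in B2 cells, with Fcer1a at 0 in all 4 libraries. That of 7 macrophage markers was 209 and 226 CPM against 59.2 and 62.5 CPM. Lyz2 alone measured 127 and 136 CPM against 16.8 and 27.2 CPM, and no other macrophage marker was called. C1qa, C1qb, C1qc and Cd68 were higher in both B1a libraries, whereas Csf1r and Timd4 overlapped between the groups. Csf1r measured 16.9 and 21.9 CPM in B1a cells and 21.2 and 18.3 CPM in B2 cells. The part of such cells in the values of Rasgrp4 was not tested.

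Of the 7 other GAPs, Rasa3 was called higher in B1a cells, with 734 and 812 CPM against 502 and 450.1 CPM (log2 fold change 0.70, SE 0.12, edgeR adjusted p = 0.0295). The 4 platelet markers, a cell type known for Rasa3, summed to 7.80 and 4.41 CPM in B1a cells and 4.86 and 0.836 CPM in B2 cells. Pf4 and Ppbp were at 0 in both B1a libraries, whereas Gp9 and Itga2b were not. Gp9 measured 7.80 and 0.809 CPM in B1a cells and 1.04 and 0 CPM in B2 cells. Itga2b was at 0 only in B1a replicate 1, and both genes overlapped between the groups. The part of platelets in the values of Rasa3 was not tested. The calls of Rasgrp4 and Rasa3 were lost when log2(TPM + 1) or log2(TPM + 0.1) was tested with limma, and without B2 replicate 2. None of the 13 tested adaptors and inhibitors upstream of Ras was called by edgeR or by limma-voom without weights. DESeq2 called 1 higher in B1a cells, and limma-voom with weights by cell type called 2. Fits that left out a B1a library called genes of this list in both directions, and in them 1 library stands for its group. With all libraries, 2 genes, Ptpn11 and Dok3, had an unadjusted p under 0.05 in edgeR. In this list the adaptor gene Grb2 measured 222 and 253 CPM in B1a cells and 265 and 299 CPM in B2 cells.

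The 2 lists that follow had 1 called gene each, where 5.74% of all tested genes were called. Of the 8 genes that make, remove or sense diacylglycerol, 1 was called. Dgka, which encodes diacylglycerol kinase alpha, an enzyme that removes the lipid, measured 146 and 155 CPM in B1a cells and 289 and 267 CPM in B2 cells. The groups did not overlap (log2 fold change -0.89, SE 0.13, edgeR adjusted p = 0.0192), and the call was lost without B2 replicate 1. Of the 16 Ras effectors and genes of the kinase cascade, Pik3cg, the catalytic subunit of phosphoinositide 3-kinase gamma, was called, with 100.3 and 111 CPM in B1a cells and 231 and 247 CPM in B2 cells (log2 fold change -1.18, SE 0.15, edgeR adjusted p = 0.0101).

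The genes for phosphatases that remove phosphate from ERK, some of which are switched on by ERK signaling, had the lowest median of the 8 lists, -1.85 on the log2 scale over 5 tested genes. Of these, 3 were called higher in B2 cells by edgeR, against 1.50% of all tested genes. DESeq2 called 4 and limma-voom without weights 2, and 4 had an unadjusted p under 0.05 in edgeR. With all 4 libraries, none was called higher in B1a cells by any of these 3 tests or had an unadjusted p under 0.05 in that direction. Dusp2 measured 54.4 and 47.5 CPM in B1a cells and 279 and 270.2 CPM in B2 cells, a difference of 5.38-fold (log2 fold change -2.43, SE 0.16, edgeR adjusted p = 0.0016). Dusp4 measured 2.24 and 1.53 CPM against 36.7 and 25.5 CPM (log2 fold change -4.04, SE 0.56, edgeR adjusted p = 0.0145), and its call was lost in limma-voom, with and without a weight for each cell type, and without B2 replicate 1. Dusp7 measured 18.4 and 28.9 CPM against 93.9 and 76.9 CPM (log2 fold change -1.85, SE 0.31, edgeR adjusted p = 0.0275), and its call was lost without B2 replicate 1. In each of these 3 genes both B2 libraries lay above both B1a libraries. Dusp6 measured 32.5 and 21.9 CPM against 77.5 and 59.8 CPM and was not called (edgeR adjusted p = 0.0725), and Dusp5, at 5.92 and 26.1 CPM against 7.20 and 4.08 CPM, overlapped between the groups.

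Rap1 is a close relative of Ras that shares regulators with it, Rasgrp2 and Rasa3 among them. Of 12 genes for Rap proteins, their exchange factors and their GAPs, 3 were called higher in B1a cells, 1 was called higher in B2 cells, and all 4 were GAPs. Over all tested genes the shares called were 4.24% and 1.50%. Rap1gap measured 75.7 and 68.0 CPM in B1a cells and 2.60 and 1.25 CPM in B2 cells, a difference of 38.1-fold (log2 fold change 5.25, SE 0.46, edgeR adjusted p = 0.0039). Its relative Rap1gap2 measured 106 and 72.1 CPM against 12.3 and 22.2 CPM (log2 fold change 2.36, SE 0.38, edgeR adjusted p = 0.0253). Sipa1l1 measured 266 and 353 CPM against 150.2 and 146 CPM (log2 fold change 1.06, SE 0.17, edgeR adjusted p = 0.0255). The calls of Rap1gap2 and Sipa1l1 were lost in both limma tests on TPM. Sipa1, known as a Rap GAP of lymphocytes, went the other way, with 375 and 314 CPM in B1a cells and 777 and 747 CPM in B2 cells (log2 fold change -1.15, SE 0.13, edgeR adjusted p = 0.0080).

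**Figure D4:**
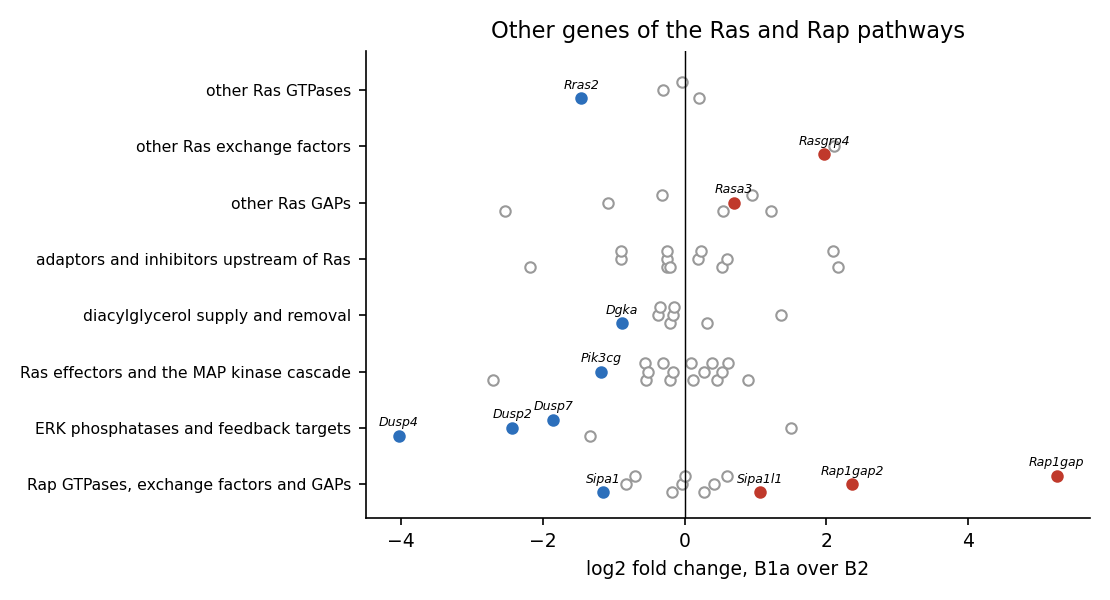
Log2 fold change of B1a over B2 (horizontal axis) for the 67 other tested pathway genes, 1 point for each gene, in rows by list, spread vertically only for legibility. Filled and named points passed edgeR's test, red for higher in B1a (5 genes) and blue for higher in B2 (7 genes), and open gray points did not (55 genes). Rap1gap lies farthest to the right at 5.25 and Dusp4 farthest to the left at -4.04.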

How the data were processed

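RNA was extracted from sorted cells, and libraries were made with a stranded kit. The authors aligned the reads against the mm10 genome, and RSEM assigned them to RefSeq genes (version 1.2.29 in the submitters' processing notes, another version in the paper's methods). Expected counts of 21970 entries were deposited without normalization, in which a read that matches several entries is divided between them, and TPM scaled to 1000000 in each library within rounding. A further deposited column is a signal value, the posterior standard deviation that RSEM gives for a count. Deposited FPKM values were not used.

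The counts of entries with one symbol were added up and rounded. Genes were kept by filterByExpr, libraries were scaled by TMM, and the quasi-likelihood test of edgeR 4.0.16 was run in R 4.3.3, with no block for replicate numbers. P-values received Benjamini-Hochberg adjustment over all 12078 genes, with a threshold of 0.05, and standard errors came from the F statistic. EBSeq, named in the paper's methods, was not run. Alternatives used DESeq2 1.42.0, limma 3.58.1 (voom, with and without a weight for each cell type, and log2 TPM with a pseudocount of 1 or 0.1 at a mean TPM of at least 1), upper quartile factors, other count filters, a fold minimum, a replicate block and omission of each library.

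The 9 genes and all gene lists were chosen with earlier results of these data known. By rule, all 9 genes and each called gene of the other lists are given with values, and for each called gene of the 9 the 3 tested genes nearest in centered log2 CPM. Grb2, Ptpn11, Dok3, Dusp5 and Dusp6 were added after their values were seen. Some genes that these rules name are not reported here. The methods count separate mice for each group. P-values rest on the spread between 2 libraries in each group, which edgeR's test moderates toward a trend over all genes. edgeR, DESeq2 and limma-voom without weights were tested on simulated data. The changed genes there had larger differences than any called among the 9 genes, so smaller ones were not covered.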

Additional observations from a re-analysis of the deposited data

How the results depend on the processing

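The depth and the 2 libraries in each group limit what could be detected, and the B1a replicates differ more than the B2 replicates. Where a fit leaves 1 library in a group, that library is assumed to vary like the other group. Rasgrp1 and Rasgrp3 were called in the same direction in 14 of 14 alternatives, Rasal3 in 13 and Sos1 in 12. Of the 9 genes, 1 was called higher in B1a cells in both TPM tests, 1 higher in B2 cells with the fold minimum, and 2 to 4 higher in B2 cells when a library was left out. All called genes numbered 1550 with DESeq2 (1004 higher in B1a, 546 higher in B2), 1415 with voom and weights (1054 and 361), 1141 with no filter (779 and 362) and 359 with log2(TPM + 0.1) (196 higher in B1a), against 693 (512 and 181). With log2(TPM + 1), 266 were higher in B1a and 233 in B2, so that 53.3% of calls were higher in B1a against 73.9%. Genes higher in B2 numbered 278 with voom and 279 with at least 10 counts in every library. When a library was left out, calls numbered 539 to 6143, with 394 to 2787 higher in B1a and 144 to 3356 higher in B2. Without B1a replicate 1 there were 3953 calls and without B1a replicate 2 there were 6143. Other pathway genes higher in B1a numbered 12 with DESeq2, 13 with voom and weights, 8 with no filter, 1 in each TPM test and 3 to 18 with a library left out, against 5. Those higher in B2 numbered 11 with DESeq2 and 4 to 22 with a library left out, against 7. With a library left out, the Nras log2 fold change ran from -0.19 to 0.15 and turned positive without B1a replicate 2 and without B2 replicate 2 (0.01), and that of Rasa1 ran from -0.99 to 0.25 and turned positive without B1a replicate 2. Rasgrp2 was called without B1a replicate 2 and Sos2 without B1a replicate 1. The TPM ratio of exchange factors to GAPs over all 8 and 10 genes, added after seeing the data, averaged 0.916 in B1a cells and 0.927 in B2 cells. The cause of these changes was not tested.

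Same-numbered replicates share only a number. The correlation of their deviations from the group means was -0.035. With a replicate block, 1481 genes were called (889 higher in B1a and 592 higher in B2), with 12 and 11 of the other pathway genes, and Rasa2 was called.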

Other observations

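The genes nearest to each called gene over the 4 libraries, in log2 CPM centered on each gene's mean, are given as a description. Nearest to Rasgrp1 were Sec14l1, Spcs3 and Lrrc57, at Euclidean distances of 0.053, 0.063 and 0.086 on the log2 scale. Spcs3 measured 201 and 187 CPM in B1a cells and 74.4 and 90.2 CPM in B2 cells, and it was called (edgeR adjusted p = 0.0147). Nearest to Sos1 were Pira2 and Wdr92, at 0.038 and 0.040. Nearest to Rasal3 were Sytl4, Calcoco2 and Cwf19l1, at 0.036, 0.052 and 0.060, of which none was called. The nearest genes to Rasgrp3 were farther away and near the floor. Gp5, Shc4 and Creb3l4, at 0.146, 0.165 and 0.189, had between 0 and 3.03 CPM in each library, and none was called. No abundant gene was among the 3 nearest to Rasgrp3.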
